A study of Mus musculus with 9 samples.

Results

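The transcripts of 86 cytosolic ribosomal protein genes were measured in cultured mouse round spermatids (RS), the haploid germ cells that follow meiosis. The genes were taken by symbol. A symbol counted when it began with Rpl, Rps, Rplp or Rpsp followed directly by a digit, and names with -ps (annotated pseudogenes), the kinase genes that begin with Rps6k, and Rps19bp1 were left out. The rule found 92 of the 55414 genes listed, and 86 of these had at least 10 counts summed over the 9 libraries, as did 25128 genes in all. The other 6 were Rpl32l, Rpl37rt, Rps12l1, Rps23rg1, Rps27rt and Rps3a2, with between 0 and 6 counts each. Of the 86 genes, 53 belong to the large subunit by name and 33 to the small subunit. Rpl6l, Rps3a3 and Rps4l are among the 86 by their symbols, although the reference annotation lists them as processed pseudogenes.

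RS had been sorted by tdTomato fluorescence and cell size from testes of Stra8-iCre; CAG-lox-stop-lox-tdTomato mice on a C57Bl/6 background, labelled WT, and the methods describe adult males in this procedure as more than 10 weeks old. Stra8-iCre marks the male germ line from spermatogonia onwards. All cells were kept for 24 h in the same medium with 0.15% DMSO. The vehicle group received nothing else, the oxamate group received 24 mM oxamate, an inhibitor of lactate dehydrogenase, and the third group received 24 mM oxamate with 0.3 mM octyl-L-2HG, an ester through which L-2-hydroxyglutarate enters cells. Each group had 3 libraries, numbered 1 to 3, 4 to 6 and 7 to 9. The sources do not say whether the libraries of a group came from separate animals, so the spread between them may be technical.

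The ribosome of the cytosol is built from ribosomal RNA and one copy of most ribosomal proteins, and translates all mRNAs that leave the nucleus. The mRNAs of ribosomal proteins are known as a class whose first bases are a C followed by a run of pyrimidines, the terminal oligopyrimidine (TOP) tract, through which mTORC1 and the RNA-binding protein Larp1 control their translation and stability. In the testis, the X chromosome is silenced during meiosis and remains largely repressed in RS, and autosomal copies of X-linked ribosomal protein genes, Rpl10l and Rpl39l among them, are known to be expressed there.

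A TOP tract lies at the start of a transcript, and the starts of 4 genes, with and without such a run, are shown, each of 15 bases before and 15 bases from the annotated start (RefSeq, GRCm38.p6, a build older than that of the counts). Capitals mark a C followed by at least 4 pyrimidines that began within 5 bases of the start.
Rps6 (chr4:86857353-86857382, minus strand): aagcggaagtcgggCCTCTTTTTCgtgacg
Rpl22l1 (chr3:28805493-28805522, plus strand): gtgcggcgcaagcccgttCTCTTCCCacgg
Rpl39 (chrX:37085208-37085237, minus strand): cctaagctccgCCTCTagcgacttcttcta
Rpl4 (chr9:64173372-64173401, plus strand): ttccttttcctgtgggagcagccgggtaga
Rps6 had a run of 10 pyrimidines and Rpl22l1 one of 8, and Rpl39 had one of 5. The window of Rpl4 held a run of pyrimidines, but it began further before the annotated start than the definition allows. A gene without a match may thus still hold a run outside these 5 bases. A start was listed for 63 of the 86 genes, and 26 of these (41.3%) held such a run, against 18.6% of 27025 genes. The cyclic AMP response element core TGACG, searched on both strands between 250 bases before and 50 bases after the start, was present for 30 of the 63 (47.6%), against 23% of all genes. The full palindrome TGACGTCA, which contains that core, was present for 5 (7.94%), against 2.03%, and the letters TATAAA on either strand for 7 (11.1%), against 15.7%. A match is a description of the letters and not of a bound site.

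The X-linked gene Rpl39 and its autosomal copy Rpl39l encode forms of the same small protein of the peptide exit tunnel, and their coding sequences are given because almost all counts of the pair fell on the copy. Capitals mark the 23 of 156 bases that differ (85.3% identity, GENCODE, GRCm38).
Rpl39: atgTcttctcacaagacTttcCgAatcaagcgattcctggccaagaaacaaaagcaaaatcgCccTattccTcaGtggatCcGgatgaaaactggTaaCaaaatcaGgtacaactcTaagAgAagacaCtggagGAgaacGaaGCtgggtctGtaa
Rpl39l: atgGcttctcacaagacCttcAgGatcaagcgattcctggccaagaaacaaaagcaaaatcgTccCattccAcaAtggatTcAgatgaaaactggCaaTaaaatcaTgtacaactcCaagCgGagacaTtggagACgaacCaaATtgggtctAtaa

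Library totals ranged from 32339533 to 39888396 counts. The labelled cell type was checked against its markers. All 14 RS markers were above a mean normalized count of 100, the deposited count divided by the library's size factor, and their sum lay between 114500 and 119500 in every library. Single RS markers moved in both directions, with 3 of the 14 called higher and 5 lower with both compounds against vehicle, 4 lower with both compounds against oxamate, and 0 called with oxamate against vehicle (1 higher at an unadjusted p under 0.05, and 1 higher by DESeq2). The sum of 11 markers of elongating spermatids, the next stage, was 150900 to 153000 in vehicle, 139900 to 145600 with oxamate and 124400 to 130800 with both compounds, and 10 of the 11 were called lower with both compounds against vehicle. The sum of 14 spermatocyte markers, the preceding stage, lay between 110500 and 135900 with overlap of all groups. Most of this sum was Ybx2, with a mean of 92910 of 118400 in vehicle, so it says little about the other markers. Of the 14, 1 was called higher with oxamate against vehicle and 1 higher with both compounds against oxamate. With both compounds against vehicle 0 were called. The sums of Sertoli cell markers (61.6 to 74.31), Leydig cell markers (27.41 to 42.65) and erythroid markers (0.9361 to 2.887) were low in every library. Those of 14 spermatogonia markers were 582.0 to 677.8 with overlap of all groups. Of these 14, 1 was called lower with both compounds against vehicle (0 by DESeq2). The sums of endothelial markers were 531.7 to 587.0 in vehicle, 549.6 to 559.1 with oxamate and 448.1 to 489.6 with both compounds, those of immune markers 191.0 to 237.2, 153.4 to 176.5 and 151.6 to 172.9, and those of peritubular markers 161.1 to 191.4, 149.6 to 175.4 and 130.3 to 141.5. All 3 were lower with both compounds than in vehicle without overlap. In that comparison 1 of 6, 1 of 6 and 1 of 8 genes tested were called lower, and 1 endothelial gene was called higher. Their part in the results was not tested. In bulk RNA, fewer cells of a type and less RNA per cell cannot be told apart.

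Libraries of 1 group also differed from each other across the ribosomal protein genes as a class. Among the 76 genes whose normalized counts averaged 100 or more, vehicle library 1 was the highest of its group for 72, and vehicle library 3 the lowest for 60. Among all 10715 genes at this level, vehicle library 1 was the highest for 41.3%. Oxamate library 4 was the highest of its group for 62 of the 76, against 45.8% of all genes, and oxamate library 6 the lowest for 54. The medians and counts of calls are given also without these libraries.

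The most counts fell on Rplp0, the base of the ribosomal stalk that recruits translation factors, with 6.03% of all counts on the 86 genes. It was followed by Rpl39l (4.12%), Rps24 (3.9%), Rpl10l (3.42%) and Rps7 (3.11%), and 10 genes together took 33.0%. Per kilobase of transcript, the vehicle mean of the 76 genes ranged from 155 normalized counts (Rpl7l1) to 13900 (Rpl39l), with a median of 3120. This order uses the full length of the longest annotated protein-coding transcript of each gene, or of the longest transcript where none is coding. That length was 5179 bases for Rps15a (761 per kilobase) and 3706 for Rps20 (1270). A long annotated form lowers the value, so the order depends on this choice.

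All 4 X-linked genes were low. Rpl10, a protein of the subunit interface, had 249 counts summed over the 9 libraries, Rpl39 had 55, Rpl36a had 28 and Rps4x, a core protein of the small subunit, had 10. The autosomal copies had 79599 counts (Rpl10l, chromosome 12), 95898 (Rpl39l, chromosome 16), 792 (Rpl36al, chromosome 12) and 38236 (Rps4l, chromosome 6). The copy thus held 99.69% of the counts of the pair for Rpl10l, 99.94% for Rpl39l, 96.59% for Rpl36al and 99.97% for Rps4l. The reference annotation lists Rps4l as a transcribed processed pseudogene.

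Near-identical copies can take reads from each other, so the pairs were also set against the share of 75-base windows of each transcript that occurs in another gene. That share was 84.9% for Rpl10, 84.6% for Rpl36a and 52.9% for Rps4x, but 7.62% for Rpl39, and 0% for Rpl39l. Counts per window found in no other gene were 84.1 for Rpl10l and 2.11 for Rpl10, 131 for Rpl39l and 0.111 for Rpl39, and 47.1 for Rps4l and 0.0236 for Rps4x. The copy was thus ahead on this scale too in these 3 pairs. For Rpl36al and Rpl36a the values were 0.859 and 0.444, and this pair is uncertain.

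**Figure D1:**
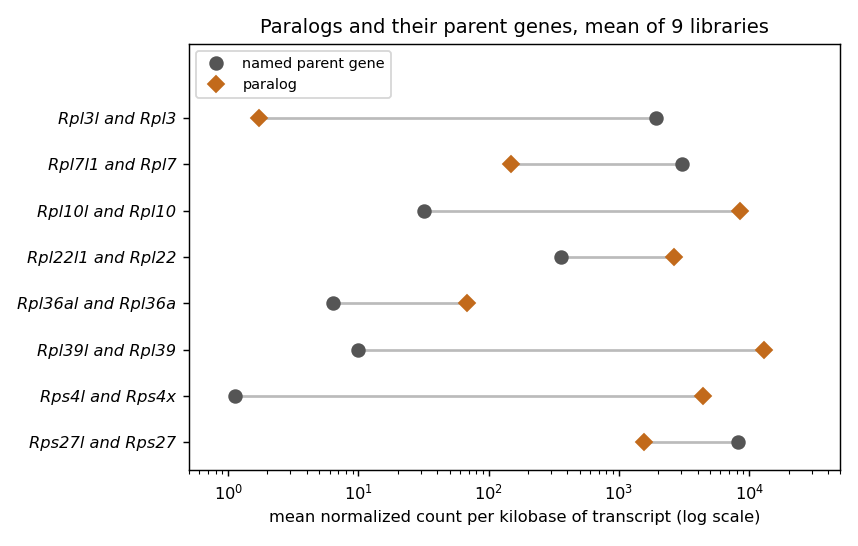
Mean normalized count per kilobase of transcript over the 9 libraries (x axis, log scale) for 8 paralogs (diamonds) and the genes they are named after (circles). Rpl10l, Rpl22l1, Rpl36al, Rpl39l and Rps4l lie to the right of their parent genes, with 8530 against 32 for Rpl10l and Rpl10 and 13000 against 9.95 for Rpl39l and Rpl39, and Rpl3l, Rpl7l1 and Rps27l lie to the left.

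The autosomal pairs were mixed. Rpl22l1, the copy of the RNA-binding protein Rpl22, had 2630 normalized counts per kilobase against 356 for Rpl22, 7.39 times as many. Of the windows of Rpl22l1, 49.6% occur in another gene, and per window found in no other gene the 2 had 55.3 and 3.4 counts. Rps27l, which in other cells is induced by p53, had 1550 against 8150 for Rps27, Rpl7l1 had 148 against 3050 for Rpl7, and Rpl3l, the striated muscle form, had 1.73 against 1920 for Rpl3. Per window found in no other gene, Rps27l had 17.1 counts against 226 for Rps27, which is above the 131 of Rpl39l on that scale. The count of Rps27rt was 0, which allows up to 3 counts (counting error only). Its coding sequence is identical to that of Rps27 over all 255 bases (100%), so reads within it could not have been told from those of Rps27.

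The ratio of a paralog to its parent gene within a library does not depend on scaling. It was tested for the 5 pairs with enough counts in the 3 comparisons, 15 tests in all, by an exact two-sided permutation test, which with 3 against 3 libraries cannot go below p = 0.1. The log2 ratio of Rps27l to Rps27 was -1.99 ± 0.0843 (SD, n = 3) in vehicle, -2.05 ± 0.0333 with oxamate and -2.17 ± 0.0578 with both compounds. The group with both compounds overlapped with neither vehicle nor oxamate (p = 0.1 in both, exact permutation, adjusted p = 0.5). The log2 ratio of Rpl10l to Rpl10 was 8.48 ± 0.354, 8.04 ± 0.0359 and 8.42 ± 0.275 in the same order, and that of Rpl39l to Rpl39 was 10.8 in each group with SDs of 1.07, 0.37 and 1.15. For Rpl10l to Rpl10, both compounds and oxamate did not overlap either (p = 0.1, exact permutation, adjusted p = 0.5). No adjusted p was below 0.5.

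To ask how much of the mRNA pool the class took up, the share of all counts on the 86 genes was computed for each library. It was 0.825%, 0.7577% and 0.7157% in vehicle libraries 1 to 3, 0.738%, 0.6815% and 0.6561% in oxamate libraries 4 to 6, and 0.6413%, 0.6625% and 0.6828% in libraries 7 to 9 with both compounds. The group means were 0.766% ± 0.0552 (SD, n = 3), 0.692% ± 0.0419 and 0.662% ± 0.0208. Every library with both compounds lay below every vehicle library (p = 0.1, exact two-sided permutation test, the smallest p possible here), whereas oxamate overlapped with vehicle (p = 0.2) and with both compounds (p = 0.5). The difference of the oxamate from the vehicle mean was -0.0743 percentage points, and -0.0448 without vehicle library 1. That of both compounds from oxamate was -0.0297, -0.00664 without oxamate library 4, -0.0192 without library 7 and -0.0476 without oxamate library 6. The share on mitochondrially encoded transcripts, which the ribosome of the mitochondrion translates, was 0.0876%, 0.0876% and 0.0859%, and the 310 pseudogenes named after ribosomal protein genes held between 0.001657% and 0.002642% of counts.

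**Figure D2:**
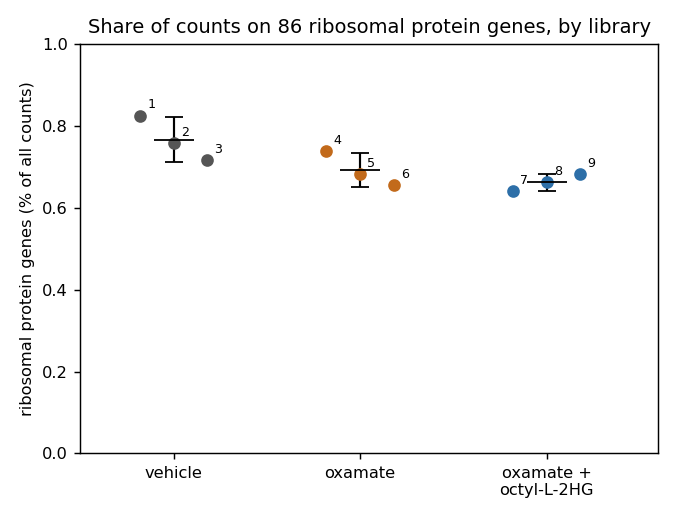
Percent of all counts that fell on the 86 ribosomal protein genes (y axis, from 0) in each of the 9 libraries, numbered as in the text, by group; horizontal bars are group means and error bars 1 SD. Vehicle lies between 0.7157% and 0.825%, oxamate between 0.6561% and 0.738%, and both compounds between 0.6413% and 0.6828%.

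Oxamate against vehicle addressed what inhibition of lactate dehydrogenase does to these transcripts. With edgeR's quasi-likelihood test and Benjamini-Hochberg adjustment over all genes, 2 of the 86 genes, Rps27a and Rps7, were lower with oxamate (2.33%, against 1.22% of all genes tested) and 0 were higher (against 3.97%). At an unadjusted p under 0.05, 17 were lower and 1 was higher (7.12% and 10.2% of all genes), and DESeq2 called 5 lower and 0 higher (1.07% and 3.92%). The median log2 fold change of the 86 genes was -0.124, with 79 below 0, beside -0.0113 for all genes tested. It was -0.0623 without vehicle library 1 (68 below 0), -0.0786 without oxamate library 6 (74 below 0), -0.177 without vehicle library 3 (78 below 0) and -0.198 without oxamate library 4 (79 below 0). For 17 genes every oxamate library lay below every vehicle library (19.8%, against 9.95% of all genes), and for 0 every library lay above (against 11.4%).

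Rps27a encodes ubiquitin fused to a protein of the small subunit. It had 1582, 1480 and 1371 normalized counts in vehicle and 1155, 1199 and 1235 with oxamate. The groups did not overlap, and the log2 fold change was -0.30 ± 0.0741 (SE, adjusted p = 0.0175). With both compounds the counts were 1189, 1139 and 1219, close to those with oxamate alone.

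Rps7, a protein of the small subunit that takes part in its assembly, had 9273, 8805 and 8227 normalized counts in vehicle and 7646, 7393 and 6849 with oxamate. Again no library of 1 group reached the other (log2 fold change -0.26 ± 0.0726, adjusted p = 0.0379). With both compounds it had 7181, 7598 and 8274 counts, and library 9 reached the lowest vehicle library. Rpl22l1 had the lowest fold change of the 76 well expressed genes without passing the threshold, at 1760, 1734 and 1444 in vehicle against 1308, 1393 and 1229 (log2 fold change -0.33 ± 0.101, adjusted p = 0.0657).

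Both calls rested on the fit across all groups, since with the oxamate and vehicle libraries alone 0 genes were called lower. The number called lower was 27 without oxamate library 4, where 2.87% of all genes were. It was 0 without vehicle library 1, vehicle library 2 or oxamate library 5, where 1.08%, 0.497% and 0.891% of all genes were. Without vehicle library 3 it was 4, where 0.784% of all genes were, and without oxamate library 6 it was 2 (Rpl4 and Rps27a), where 0.895% were. The summed levels of elongating spermatid and immune markers were also lower with oxamate than in vehicle without overlap. Called lower in this comparison were 5 of the 11 elongating spermatid markers, 1 immune and 1 peritubular gene, while 1 endothelial gene was called higher, and their part in the result was not tested.

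**Figure D3:**
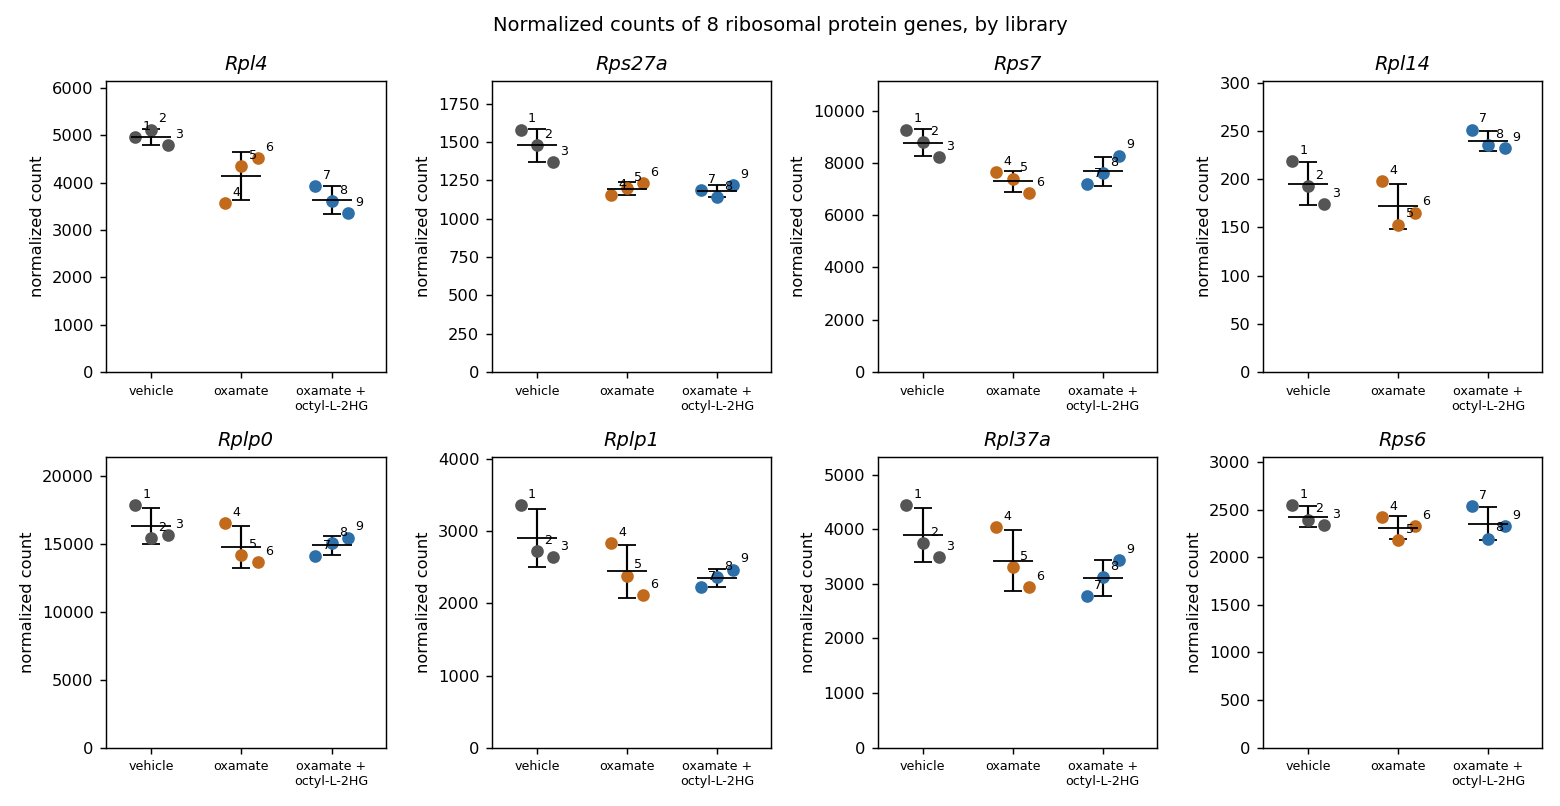
Normalized counts (y axes, from 0) of 8 ribosomal protein genes in the 9 libraries, numbered as in the text, by group; horizontal bars are group means and error bars 1 SD. Rpl4 falls from 4787 or more in vehicle to 3935 or less with both compounds, Rps27a and Rps7 are lower with oxamate, Rpl14 is highest with both compounds (232.2 to 251.6), and Rplp0 and Rps6 overlap between groups.

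Oxamate with octyl-L-2HG against oxamate addressed what the ester changes in cells whose lactate dehydrogenase is inhibited. One gene of the 86 was called, Rpl14, which was higher with the ester (1.16%, against 3.18% of all genes tested). The number lower was 0 (against 8.06%), and at an unadjusted p under 0.05, 4 genes were higher and 5 lower (8.5% and 15.1% of all genes); DESeq2 called 3 higher and 0 lower (4.91% and 6.51%). The median log2 fold change was -0.0167, with 35 genes above 0 and 51 below, beside -0.0384 for all genes tested. Neither this median nor the split was stable in sign, since DESeq2's size factors gave 0.00971 with 46 genes above and 40 below, no filter on low counts 0.0281 with 54 and 32, and leaving out oxamate library 4 gave 0.0404 with 64 and 22. Without oxamate library 6 it was -0.0561, with 31 above and 55 below. For 12 genes every library with the ester lay above every oxamate library (14%, against 13.4% of all genes). For 1 gene, Rps10 with 81 counts in all, every library lay below (against 15.3%). Called lower in this comparison were 8 of the 11 elongating spermatid markers. The summed levels of elongating spermatid, endothelial and peritubular markers were lower than with oxamate without overlap, and their part in the result was not tested.

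Rpl14, a protein of the large subunit, is one of the less abundant transcripts of the class. It had 198.1, 153.0 and 165.5 normalized counts with oxamate and 251.6, 235.2 and 232.2 with both compounds, and the groups did not overlap (log2 fold change 0.45 ± 0.118, adjusted p = 0.0162). In vehicle it had 218.6, 193.3 and 174.0, also below every library with both compounds, without passing the threshold (log2 fold change 0.27 ± 0.115, adjusted p = 0.113). Rpl14 was called in all 7 other analyses of the comparison with oxamate and in 5 of the 9 with a library left out, where the adjusted p reached 0.106.

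Oxamate with octyl-L-2HG against vehicle gives the summed difference of both compounds, and shares its vehicle libraries with the first comparison. In it 12 of the 86 genes were lower (14%, against 10.6% of all genes tested) and 0 were higher (against 7.48%). Among genes averaging 100 normalized counts or more these shares were 15.8% of the 76, against 13.6% of all genes lower, and 0 against 16% higher. At an unadjusted p under 0.05, 35 genes were lower and 2 higher (17.1% and 12.9% of all genes), and DESeq2 called 10 lower and 0 higher (8.04% and 8.49%). The median log2 fold change was -0.154, with 72 of 86 below 0, beside -0.0452 for all genes tested. For 26 genes every library with both compounds lay below every vehicle library (30.2%, against 18.5% of all genes) and for 2, Rpl14 and Rpl5, every library lay above (against 18%).

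By subunit, 4 of the 53 large subunit genes and 8 of the 33 small subunit genes were called lower, with median log2 fold changes of -0.11 and -0.179. In the order of their names the 12 were Rpl4, Rpl34, Rpl37a and Rplp1, and Rps7, Rps13, Rps14, Rps18, Rps20, Rps27a, Rps27l and Rps29. Of these, Rpl34, Rps13, Rps18, Rps20 and Rps29 are named only to complete the count.

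Rpl4, which lines the exit tunnel of the large subunit, had the lowest fold change of the 76. It had 4962, 5123 and 4787 normalized counts in vehicle, 3564, 4356 and 4513 with oxamate, and 3935, 3612 and 3360 with both compounds. Against vehicle, both groups lay below without overlap, and the difference passed the threshold with both compounds (log2 fold change -0.47 ± 0.0801, adjusted p = 2.3e-04) but not with oxamate alone (-0.26 ± 0.0798, adjusted p = 0.0685). Its libraries were not ordered like those of the class, since oxamate library 4, the highest of its group for most ribosomal protein genes, was the lowest for Rpl4. The call remained in each of the 9 analyses with 1 library left out and in all 7 other analyses, with log2 fold changes from -0.53 to -0.36.

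Of the stalk proteins, which bring elongation factors to the ribosome, Rplp1 was called lower. Rplp1 had 3362, 2721 and 2638 normalized counts in vehicle and 2229, 2362 and 2470 with both compounds, without overlap (log2 fold change -0.33 ± 0.0993, adjusted p = 0.0247). Its partner Rplp2 had 3436, 2864 and 2931 against 2964, 2983 and 2769, and overlapped (-0.11 ± 0.0756, adjusted p = 0.387). Rplp0, which anchors both, had 17860, 15450 and 15680 against 14120, 15080 and 15480, where library 9 reached vehicle library 2 (-0.15 ± 0.0773, adjusted p = 0.188).

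Rpl37a, a zinc-binding protein of the large subunit, had 4440, 3748 and 3494 normalized counts in vehicle and 2776, 3126 and 3436 with both compounds (log2 fold change -0.34 ± 0.107, adjusted p = 0.0285). The groups were separated by the narrow gap between vehicle library 3 and library 9. Rps14, a protein of the platform of the small subunit, had 7112, 6036 and 5514 against 4263, 4904 and 5334 (-0.38 ± 0.129, adjusted p = 0.0453). Its oxamate libraries spanned 4458 to 7050, a wider range than either of the other groups.

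Rps27l had 1116, 983.7 and 901.2 normalized counts in vehicle and 725.5, 816.1 and 815.4 with both compounds, without overlap (log2 fold change -0.37 ± 0.0951, adjusted p = 0.00847). Its parent Rps27 had 4375, 3718 and 3819 against 3321, 3510 and 3779 and did not pass the threshold (-0.19 ± 0.0851, adjusted p = 0.139), and a difference between the 2 genes is tested by the ratio above. Rps27a (-0.34 ± 0.0743, adjusted p = 0.00219) and Rps7 (-0.21 ± 0.0726, adjusted p = 0.0464) were lower in this comparison as with oxamate alone. Rps6, the small subunit protein that S6 kinases phosphorylate, had 2546, 2394 and 2337 in vehicle and 2538, 2195 and 2325 with both compounds, and overlapped (-0.07 ± 0.0728, adjusted p = 0.606).

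The germ cell copies of X-linked genes were not called in the fit across all 9 libraries. Under other settings, Rpl10l was lower with oxamate without oxamate library 4 and higher with both compounds against oxamate with the trend over length and GC content removed. Rpl39l was lower with both compounds against vehicle with no filter, with only the 2 groups compared, with total counts as the scaling and without oxamate library 4. Rpl10l had 9640, 9056 and 8499 normalized counts in vehicle, 9026, 7970 and 7857 with oxamate and 8337, 9012 and 9126 with both compounds. Rpl39l had 12870, 10950 and 9843, then 12640, 9846 and 9182, then 9053, 9740 and 10040, with vehicle library 1 and oxamate library 4 above the rest. Rps4l had 4840, 4268 and 3992, then 4989, 3925 and 3721, then 3929, 4153 and 3853. Their adjusted p against vehicle with both compounds were 0.641, 0.109 and 0.279.

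A test of any difference among the 3 groups called 10 of the 86 genes (11.6%, against 19.8% of all genes tested). These were 8 of the genes above (Rpl4, Rplp1, Rps7, Rps13, Rps20, Rps27a, Rps27l and Rps29) with Rpl14 and Rpl22l1 (adjusted p = 0.0473 for Rpl22l1).

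**Figure D4:**
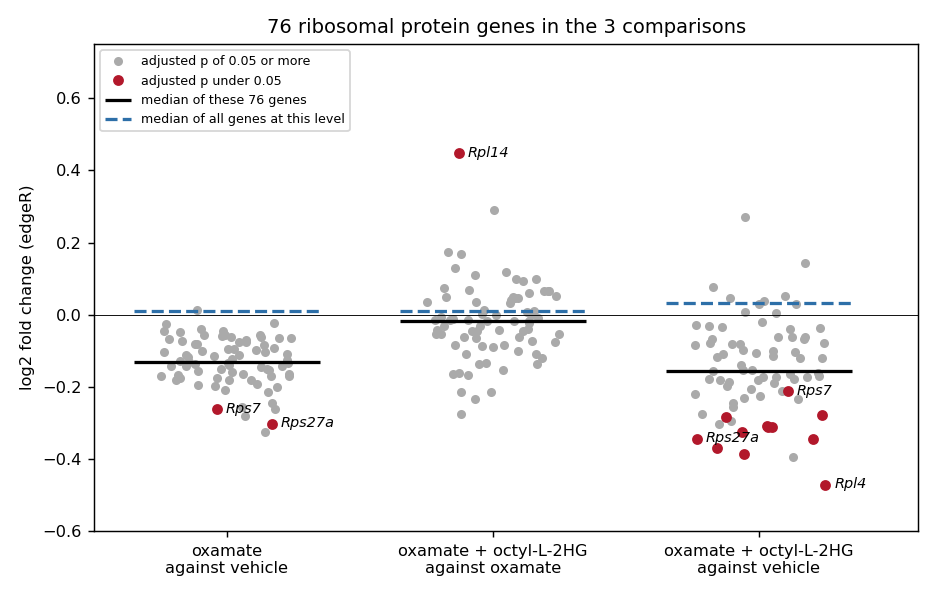
Log2 fold change (y axis, edgeR) of the 76 ribosomal protein genes that averaged at least 100 normalized counts in the 3 comparisons; each point is a gene, red where the adjusted p was under 0.05, black lines are medians of these genes and dashed blue lines medians of all 10715 genes at this level. The medians lie at -0.129, -0.0167 and -0.155 beside 0.00975, 0.00995 and 0.0315, and horizontal scatter carries no meaning.

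Ribosomal protein transcripts are short, and transcript length moved with the same comparisons. By the longest annotated transcript, their median length was 925.5 bases, beside 3015 for the 10620 other genes that averaged at least 100 normalized counts. Of the 86 genes 50 were under 1000 bases, so the class is not matched in length to the short genes below. With both compounds against vehicle, the median log2 fold change was -0.155 for the 76 genes, -0.148 for the 1129 other genes with transcripts under 1000 bases, and 0.0545 for the 9491 with longer ones. The short genes were called lower in 31.4% of cases, the long ones in 11.4% and the ribosomal protein genes in 15.8%. With oxamate against vehicle the medians were -0.129, -0.096 and 0.0237, and with both compounds against oxamate -0.0167, -0.0721 and 0.0204.

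When each library's trend over transcript length and GC content was removed before the test, the median of the 86 genes with both compounds against vehicle was 0.0179, with 3 genes lower (Rpl4, Rpl34 and Rpl18) and 8 higher (Rpl5, Rpl7a, Rpl11, Rpl14, Rpl23, Rpl35a, Rps12 and Rps24). With the trend removed, 10.6% of all genes tested were lower and 10.7% higher. Thus, Rpl4 and Rpl34 remained lower of the 12, while Rps27a, Rps27l, Rplp1, Rpl37a, Rps14 and Rps7 did not pass the threshold, with log2 fold changes from -0.23 to -0.03. With oxamate against vehicle, Rps27a and Rps7 remained, and the median was -0.066. With both compounds against oxamate, 13 genes were higher, Rpl14 and Rpl10l among them, where 8.7% of all genes were, and the median was 0.0892. Rpl4 was thus lower with both compounds whether or not the trend was removed.

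Within vehicle and within the group with both compounds, the ribosomal protein genes and other short genes ranked the libraries alike, but not within oxamate. Values are median log2 deviations from the vehicle mean. In vehicle libraries 1 to 3 the 76 genes lay at 0.119, -0.029 and -0.084, and other short genes at 0.04, -0.00662 and -0.0342. In oxamate libraries 4, 5 and 6 the 76 genes lay at -0.0195, -0.16 and -0.23, and other short genes at -0.107, -0.0792 and -0.108. The oxamate medians of the ribosomal protein genes thus spanned a wider range than those of other short genes. In the libraries with both compounds the 76 genes lay at -0.14, -0.134 and -0.0905, beside -0.136, -0.134 and -0.12 for other short genes.

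**Figure D5:**
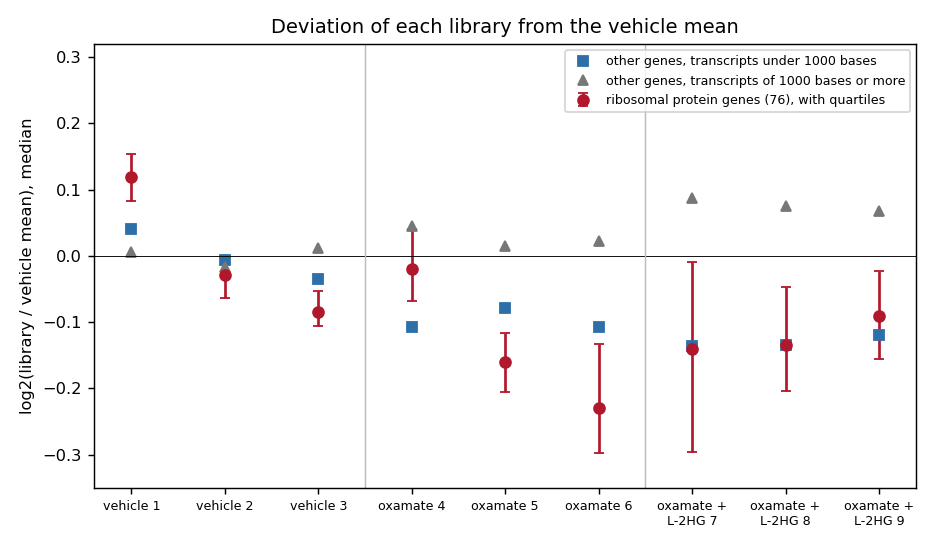
Median log2 ratio to the vehicle mean (y axis) in each library for the 76 ribosomal protein genes (circles, bars from the lower to the upper quartile of genes), other genes with transcripts under 1000 bases (squares) and other genes with longer transcripts (triangles), all averaging at least 100 normalized counts. Circles range from 0.119 in vehicle library 1 to -0.23 in oxamate library 6, and squares and circles lie together in the libraries with both compounds.

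Without vehicle library 1, the number of genes lower with both compounds against vehicle was 2 (Rpl4 and Rps27a) in place of 12, where 9.29% of all genes were lower in place of 10.6%, and the median was -0.0859. Without vehicle library 3 it was 14, where 8.29% of all genes were lower, and the median was -0.189. Without oxamate library 4 it was 35, where 13.5% of all genes were lower, although that library is not part of this comparison and enters it only through the shared estimate of the spread. Without library 7 or 8 of the group with both compounds it was 2 or 3, where 7.16% or 7.31% of all genes were lower. Rpl4 and Rps27a were called in each of these analyses. The summed level of elongating spermatid markers fell in the same comparison, as given above, and its part in the result was not tested.

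Rpsa, Rack1 and Fau, components of the small subunit that the symbols leave out, did not pass the threshold in the fit across all 9 libraries. Rpsa and Rack1 had log2 fold changes of -0.12 ± 0.0796 and -0.16 ± 0.107 with both compounds against vehicle. Fau, a ubiquitin-like fusion with a small subunit protein, had -0.13 ± 0.0798, and under other settings it was lower with oxamate without oxamate library 4 and higher with both compounds against oxamate with the trend over length and GC content removed. All 3 were below 0, like most of the class.

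The assembly of ribosomes in the nucleolus was represented by 103 listed genes, of which 102 were tested. With both compounds against vehicle, 20 were higher and 3 lower, and the median log2 fold change was 0.0751. Of all genes tested, 7.48% were higher and 10.6% lower in this comparison, and of those averaging 100 normalized counts or more, where 81 of the assembly genes lie, 16% and 13.6%. Against oxamate, both compounds gave 10 higher and 3 lower, beside 3.18% and 8.06% of all genes (756 and 1361 of 10715 averaging 100 or more). DESeq2 called 17 higher in that comparison (4.91% of all genes), and 22 were higher with the trend over length and GC content removed (8.7%). The number was 6 without oxamate library 6 (2.54% of all genes), 3 without library 9 (1.56%), 2 without oxamate library 5 (1.26%), and 1 without library 7 or 8 (0.947% and 1.09%). With oxamate against vehicle 6 were higher and 0 lower, beside 3.97% and 1.22% of all genes (866 and 170 of 10715 averaging 100 or more). At an unadjusted p under 0.05, 3 assembly genes were lower (7.12% of all genes), and DESeq2 called 0 lower (1.07%). The count of 20 became 23 with the trend removed (10.7% of all genes) and 9 with total counts as the scaling (4.9%). It was 9 without vehicle library 1 (5.77%), 12 without vehicle library 2 (5.58%), and 7, 12 and 10 without libraries 7, 8 and 9 (4.62%, 4.81% and 5.44%). With oxamate against vehicle, 2 were higher without vehicle library 2 (2.16% of all genes), and 6 were lower without oxamate library 4 (2.87%).

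Nat10, which acetylates ribosomal RNA, had 700, 619 and 680 normalized counts in vehicle, 996, 796 and 819 with oxamate and 1140, 1050 and 1108 with both compounds. Each group lay above the one before it without overlap, and the log2 fold change with both compounds against vehicle was 0.70 ± 0.0888 (SE, adjusted p = 8.92e-06). Taf1d, a factor of RNA polymerase I, had 247, 295 and 288 in vehicle and 468, 468 and 463 with both compounds (0.73 ± 0.104, adjusted p = 3.31e-05). Gnl3, a nucleolar GTPase, and Ddx54, a nucleolar helicase, were higher than in vehicle both with oxamate (0.39 ± 0.0806 and 0.60 ± 0.0923) and with both compounds (0.48 ± 0.0805 and 0.52 ± 0.0927). Ncl, the major nucleolar protein nucleolin, was higher with both compounds than with oxamate (0.44 ± 0.123, adjusted p = 0.023), whereas Ddx10, another helicase, was lower (-0.73 ± 0.149, adjusted p = 0.00311) and so was Fbl, which methylates ribosomal RNA (-0.40 ± 0.107, adjusted p = 0.0169).

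Other genes whose transcripts carry TOP tracts, mostly translation factors and RNA-binding proteins and the noncoding Gas5 and Snhg1, were represented by 21 genes, all tested. With oxamate against vehicle 0 were called in either direction, beside 3.97% higher and 1.22% lower of all genes. At an unadjusted p under 0.05, 5 were lower and 3 higher, beside 7.12% and 10.2% of all genes. DESeq2 called 1 higher (3.92% of all genes). With the trend over length and GC content removed, 0 were higher and 2 lower (3.96% and 2.56% of all genes). At an unadjusted p under 0.05 these numbers were 3 and 8, for which no share of all genes is given here. Against oxamate, 2 were higher and 1 lower with both compounds, beside 3.18% and 8.06% of all genes, while DESeq2 called 4 higher, 8 were higher with the trend removed (4.91% and 8.7% of all genes), and 0 were higher without oxamate library 5, library 7 or library 8. Against vehicle, 2 were higher and 0 lower with both compounds, beside 7.48% and 10.6% of all genes. At an unadjusted p under 0.05, 1 was lower (17.1% of all genes), and DESeq2 called 0 lower (8.04%). With the trend removed 4 were higher and 1 lower (10.7% and 10.6%). The median log2 fold changes were -0.0579, 0.0555 and -0.00335 in that order, beside -0.124, -0.0167 and -0.154 for the ribosomal protein genes. Pabpc1, the cytosolic poly(A)-binding protein, had 141300, 154300 and 163600 normalized counts with oxamate and 202100, 182300 and 163800 with both compounds (0.23 ± 0.0706, adjusted p = 0.038), where library 9 stood just above oxamate library 6. Eif3e, a subunit of an initiation factor, was higher (0.24 ± 0.0747, adjusted p = 0.0387) and Eef1d, of an elongation factor, lower (-0.24 ± 0.0613, adjusted p = 0.015) in that comparison. Eif4b, which assists the initiation helicase, and Hnrnpa1 were higher with both compounds against vehicle (0.24 ± 0.063 and 0.31 ± 0.0782).

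Of 22 genes tested among those that regulate the translation of TOP mRNAs, 6 were higher and 3 lower with both compounds against vehicle, beside 7.48% and 10.6% of all genes (16% and 13.6% of those averaging 100 normalized counts or more). Against oxamate, 2 were higher and 2 lower with both compounds, beside 3.18% and 8.06%, and with oxamate against vehicle 2 were higher and 1 lower, beside 3.97% and 1.22%. In the comparison of both compounds with oxamate, 5 were higher with the trend over length and GC content removed (8.7% of all genes), and 1 without library 7 or 8 (0.947% and 1.09%). Against vehicle, 3 were higher with both compounds without library 8 (4.81%). With the trend removed, oxamate against vehicle gave 1 higher and 2 lower (3.96% and 2.56% of all genes). Larp1, which binds the TOP tract, had 20520, 20240 and 22460 normalized counts in vehicle, 25090, 24410 and 24110 with oxamate and 28740, 26840 and 26660 with both compounds. The 3 groups did not overlap (0.36 ± 0.0614 with both compounds against vehicle, adjusted p = 2.44e-04). Larp4b, of the same family, had 779, 766 and 828, then 1132, 1038 and 1128, then 1472, 1413 and 1396, and was higher at both steps (0.48 ± 0.0728 and 0.35 ± 0.0716).

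Genes of mTORC1 signalling and cap binding moved in both directions. Rptor, the subunit that brings substrates to mTORC1, had 670, 806 and 819 normalized counts with oxamate and 499, 545 and 548 with both compounds (-0.55 ± 0.0914, adjusted p = 4.36e-04). Eif4g1, the scaffold of the cap-binding complex, was lower in the same comparison (-0.40 ± 0.0798, adjusted p = 0.00217), while Rps6kb1, the S6 kinase that mTORC1 activates, was higher at 135, 135 and 116 against 78, 98 and 87 (0.52 ± 0.136, adjusted p = 0.0147). Eif4a2, an initiation helicase, was lower with oxamate against vehicle (-0.44 ± 0.0874, adjusted p = 0.00324) and with both compounds (-0.54 ± 0.0882, adjusted p = 1.35e-04).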

How the data were processed

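RNA of RS, 3 libraries per group, was sequenced after poly(A) selection. The authors aligned the reads with TopHat 2.1.1 and deposited the raw count of reads per gene from htseq-count 2.01 (GRCm39, Ensembl annotation); the labels name WBcel235 as a build too. They also deposited a normalized signal, the count divided by the library's DESeq2 size factor, printed here as normalized counts. The strand setting of the counting is not given in the sources used here, and the labels and the methods name different sequencers. Reads that fit several genes are not counted by htseq-count's default, so genes with near-identical copies can be undercounted.

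Groups came from the labels; no column of values went unused. The 25128 genes with at least 10 counts in all entered edgeR 4.0.16 (R 4.3.3; TMM, robust quasi-likelihood fit of all 9 libraries, group as the only factor, Benjamini-Hochberg adjustment over all genes, threshold 0.05). Shares of counts and log2 ratios of paralog to parent (pseudocount 0.5) were tested by exact permutation over libraries. Alternatives were DESeq2 1.42.0, other scalings and filters, a threshold of 0.01, only the groups compared, each library left out, and a smooth trend over transcript length and GC content (mgcv 1.9.3) as offset, with both known for 99.6% of genes from GENCODE. On simulated data for oxamate against vehicle (24585 genes), 100 of 100 genes changed 2-fold and 64 of 100 changed 1.3-fold were called, with 11 unchanged genes called, so smaller changes can be missed.

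The members and lists were chosen with earlier results of these data known. Named genes are the paralogs and their parents, X-linked members, stalk proteins, Rps6, Rps27a, components outside the symbols (1 is not reported here), per comparison the 5 called members with the largest rise and fall among those averaging 100 normalized counts or more, and the 3 called genes of each other list with the largest change. Other genes named (the rest of the called or non-overlapping members, Rps24 among the most counted) were chosen after their values were seen.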

Additional observations from a re-analysis of the deposited data

How the results depend on the processing

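The 9 libraries carry the numbers 1 to 9 once each. No paired analysis was possible because no 2 groups share a replicate number. Whether libraries of different groups share a day or a sort is not given in the sources used here. Leaving out 1 library at a time gave 0 (oxamate 5, vehicle 1 or vehicle 2 left out) to 27 (oxamate 4) genes lower with oxamate against vehicle in place of 2. It gave 0 (0.947% to 2.54% of all genes) to 3 (oxamate 4, 6.27%) higher with both compounds against oxamate. It gave 0 (4.5% to 8.59%) to 1 (oxamate 4, 11.3%) lower there. Against vehicle it gave 0 (4.62% to 7.72%) to 1 (oxamate 4, 11.1%) higher with both compounds. It gave 2 (library 7 or vehicle 1, 7.16% and 9.29%) to 35 (oxamate 4, 13.5%) lower there. For any difference among the groups it gave 2 (library 7) to 41 (oxamate 4) genes in place of 10, where 12.6% and 29.2% of all genes were called in place of 19.8%.

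Of the ribosomal protein genes lower with oxamate against vehicle, DESeq2 called 5 (1.07% of all genes), no filter on low counts 7 (1.14%), only the 2 groups compared 0 (0.641%), and a threshold of 0.01 called 0 (0.382%). With both compounds against oxamate, DESeq2 and edgeR's own filter called 3 higher (4.91% and 6.44% of all genes), DESeq2's size factors, no filter and only the 2 groups compared called 2 (4.4%, 3.85% and 3.59%), the removed trend over length and GC content 13 (8.7%) and the stricter threshold 0 (0.879%), and total counts as the scaling called 1 lower (10%). With both compounds against vehicle, no filter and only the 2 groups compared called 1 higher (7.25% and 11.3%) and the removed trend 8 (10.7%). In the lower direction only the 2 groups compared gave 25 (12.2%), total counts 36 (13.4%), the removed trend 3 (10.6%) and the stricter threshold 3 (6.29%). Any difference gave 23 with total counts (19.6%) and 17 with the removed trend (25%). It gave 2 with the stricter threshold, for which no share of all genes is given here, so the 2 cannot be set against a background. The median log2 fold change with both compounds against oxamate (-0.0167) turned to 0.0892 with the trend removed, 0.00978 with DESeq2, 0.00971 with its size factors, 0.00288 with edgeR's own filter, 0.0281 with no filter, 0.00656 with only the 2 groups compared and 0.0404 without oxamate 4. Against vehicle it turned to 0.0179 with the trend removed; the causes were not tested. The group difference in the share of counts kept its direction with the other denominators, with the pseudogenes added and with each library left out. Its size ranged from -0.0995 to -0.0448 percentage points with oxamate against vehicle. With both compounds it ranged from -0.0476 to -0.00664 against oxamate and from -0.129 to -0.0745 against vehicle. The 9 libraries limit what can be called: with 3 against 3, simulated 1.3-fold changes were called in 64 of 100 genes.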
